A study of Mus musculus with 6 samples.

Results

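Immediate early genes are transcribed within minutes of a stimulus from factors already present in the cell, without new protein synthesis. Many encode transcription factors: the FOS, JUN and ATF proteins pair through leucine zippers to form AP-1 and related dimers, the EGR proteins bind GC-rich sites through zinc fingers, and the NR4A proteins are orphan nuclear receptors. In neural tissue they are known as readouts of activity and growth factor signalling, and they are also known to be induced by enzymatic dissociation of tissue at warm temperature. Here 10 such genes were followed, Fos, Fosb, Jun, Junb, Atf3, Egr1, Egr2, Egr3, Nr4a1 and Ier2, chosen by symbol among the 34836 genes named on the array. Each had 1 probe of 60 bases.

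The arrays compared astroglial precursors of the neonatal mouse cerebellum that carry GLAST (Slc1a3, a glutamate transporter) and either do or do not carry ACSA-2, an epitope of the sodium pump subunit Atp1b2. There were 3 arrays of ACSA-2-positive, GLAST-positive cells (A+/G+) and 3 of ACSA-2-negative, GLAST-positive cells (A-/G+), each from 50000 cells of wild-type mice of either sex. The labels give the strain CD1 and postnatal days 1 to 3, whereas the study's methods name a C57BL/6 background for its wild-type mice and P0/P1 for these samples. The methods also name CD1 wild-type mice, as adult transplant hosts, and give no strain for the array samples themselves. Cerebella were pooled and dissociated with a trypsin-based kit under warming. A+/G+ cells were then collected in 1 magnetic step with anti-ACSA-2 beads, whereas A-/G+ cells passed a depletion step against ACSA-2, L1CAM, PSA-NCAM, CD45 and Ter119 before selection for GLAST. The fractions therefore differed in handling as well as in surface markers, and each fraction lay on its own slide, so fraction, handling and slide cannot be told apart. Signals are given as quantile-normalized log2 signal, on which 1 unit is a 2-fold difference. Levels of different genes are not compared, since each probe has its own brightness.

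In sample signal the A-/G+ arrays were dimmer and less alike than the A+/G+ arrays. Before normalization the 75th percentile of signal lay between 332 and 334 on the A+/G+ arrays and was 56.6, 113 and 251 on A-/G+ replicates 1, 2 and 3. On these, 18331, 21406 and 24726 probes were clear of background, against 26469 to 26653 on A+/G+. Spike-in control probes went the other way: mean log2 13.11, 13.12 and 12.05 on these, against 11.33 to 11.68 on A+/G+. By each measure replicate 3 was the A-/G+ array nearest to A+/G+. The cause was not tested. The sorting antigens read as labelled: Atp1b2 was 2.16 log2 units higher in A+/G+ (limma, adjusted p = 0.00725), and Slc1a3, clear of background throughout, was 1.19 lower in A+/G+ with no overlap between the fractions (adjusted p = 0.0733). The markers of other cell types were not at 0 in either fraction, and their values are given with the results below.

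As a group the immediate early genes read higher in A+/G+. Of the 10, all but Egr3 were marked by the scanner software as clear of background on each of the 6 arrays. The mean of each of these 9 was higher in A+/G+, by 0.39 to 1.49 log2 units with a median of 0.79. Over the 13685 genes that were likewise clear of background the median was -0.09, and 41.4% had a higher mean in A+/G+. The direction of the 9 held under every alternative setting. For 6 genes (Fos, Jun, Junb, Atf3, Egr1 and Nr4a1) every A+/G+ array lay above every A-/G+ array, a pattern held by 12.7% of all probes and by 20.2% of those 13685 genes. After adjustment over all 55681 probes 1 of the 10, Junb, passed an adjusted p of 0.05 in limma, against 4.65% of all probes in that direction. At an unadjusted p of 0.05, 5 of the 10 passed, against 23.3% of all probes. None also reached the 4-fold difference of medians that the study's methods asked for, a pair of limits met in that direction by 1.53% of probes, and none reached them with the methods' t-test either. With 3 arrays against 3, the exact permutation test of a single gene cannot give a two-sided p below 0.1.

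**Figure D1:**
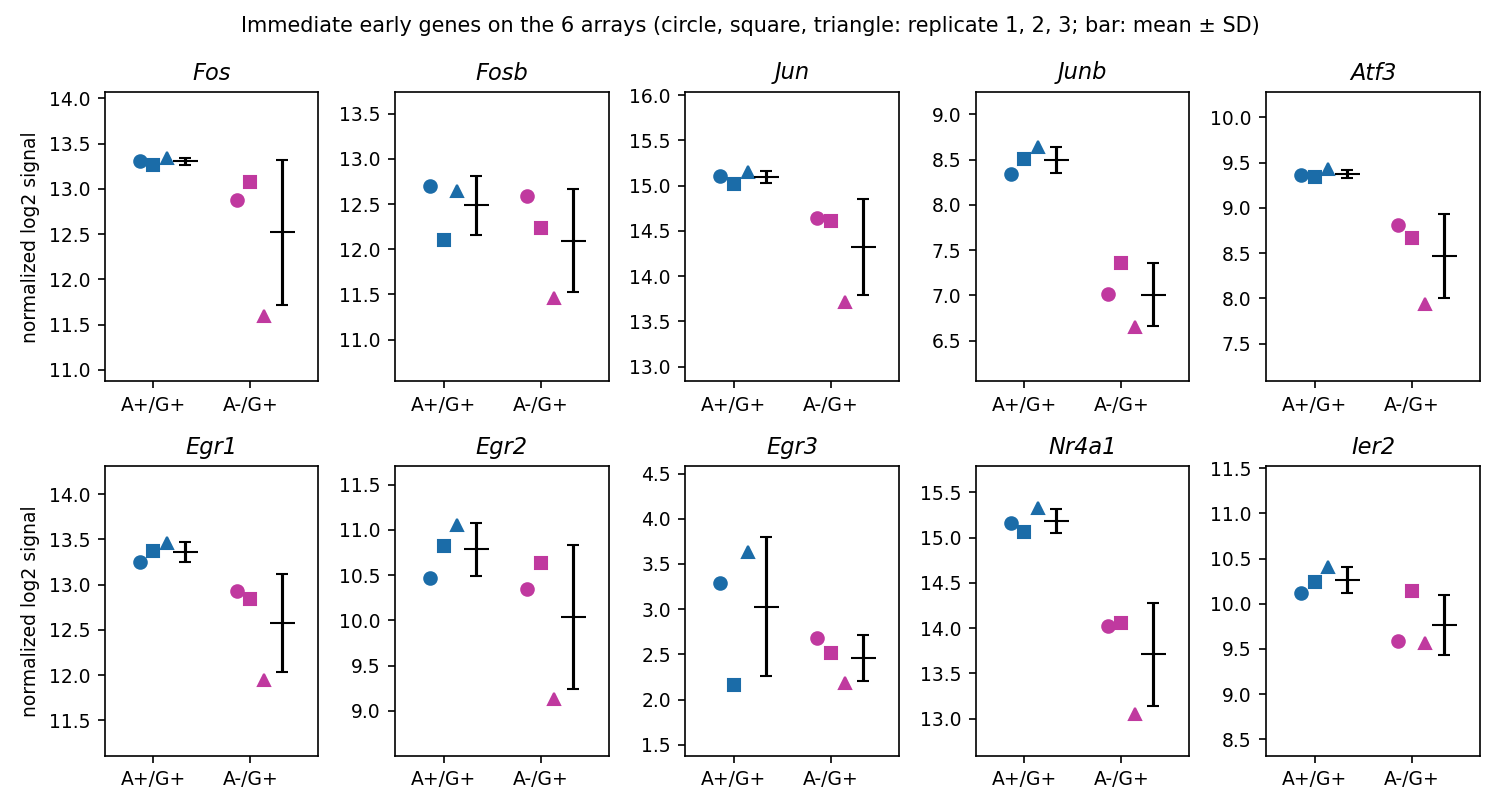
Normalized log2 signal (y axis) of each immediate early gene on the 3 A+/G+ arrays (blue) and the 3 A-/G+ arrays (magenta), with mean ± SD in black; every panel spans the same height in log2 units. The A+/G+ arrays lie close together for most genes, and A-/G+ replicate 3 (triangle) is the lowest A-/G+ array in every panel.

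Junb encodes a JUN protein that pairs with FOS proteins and often opposes Jun. It read 8.35, 8.50 and 8.64 in A+/G+ replicates 1 to 3 and 7.02, 7.35 and 6.65 in A-/G+. The lowest A+/G+ array stood clearly above the highest A-/G+ array. The difference of means was 1.49 ± 0.20 (SE, n = 3 and 3; limma, adjusted p = 0.0195), which is 2.80-fold. Of the 15 alternative settings 6 ended this call, among them leaving out any A+/G+ array (adjusted p 0.0675, 0.0881 and 0.0873) or A-/G+ replicate 1 (adjusted p = 0.0549), while the difference stayed between 1.14 and 1.66. The Junb probe lies at chr8:87501881-87501940 on the minus strand of mm9, and its sequence is shown because it is the member that passed the test.
Junb probe: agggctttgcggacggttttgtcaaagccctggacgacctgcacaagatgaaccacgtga

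Jun, the partner that forms the most widely used AP-1 dimers with Fos, read 15.11, 15.02 and 15.15 in A+/G+ and 14.65, 14.61 and 13.71 in A-/G+. The fractions did not overlap, but the difference of 0.77 ± 0.28 missed the threshold (limma, adjusted p = 0.188). Its probe lies at chr4:94716928-94716987 (mm9, minus strand).

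Fos, the founding member of its family, was the most even of the 10 in A+/G+, where it read 13.31, 13.26 and 13.35. In A-/G+ it read 12.88, 13.08 and 11.60, so that replicate 3 lay far below the other arrays while still none reached the A+/G+ range. The difference of 0.79 ± 0.42 did not pass (limma, adjusted p = 0.366), and without A-/G+ replicate 3 it was 0.33. Fos was the best measured of the genes, with 10 spots of its probe (chr12:86817900-86817959, mm9, plus strand) on every array. The SD over these spots was 0.032 to 0.060 log2 units within an array, against an SD of 0.81 between the A-/G+ arrays. One spot of A-/G+ replicate 1 was marked as an outlier by the scanner software and left out. Fosb, its close relative, overlapped between the fractions, at 12.70, 12.11 and 12.65 in A+/G+ and 12.58, 12.24 and 11.46 in A-/G+ (probe at chr7:19888168-19888227, mm9, minus strand). Its difference of 0.39 ± 0.35 was the smallest of the 10 (limma, adjusted p = 0.557).

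Atf3, a stress-induced partner of JUN proteins, read 9.36, 9.35 and 9.43 in A+/G+ and 8.81, 8.66 and 7.93 in A-/G+ (probe at chr1:192994547-192994606, mm9, minus strand). The fractions did not overlap, with a difference of 0.91 ± 0.25 (limma, adjusted p = 0.0979).

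The EGR genes differed in how well they could be measured. Egr1, whose protein drives many growth factor and activity targets, read 13.25, 13.37 and 13.46 in A+/G+ and 12.93, 12.84 and 11.95 in A-/G+, from a probe on chromosome 18. Its fractions did not overlap and differed by 0.79 ± 0.29 (limma, adjusted p = 0.195). Egr2, known for its role in hindbrain patterning and myelination, read 10.47, 10.83 and 11.06 in A+/G+ and 10.35, 10.63 and 9.13 in A-/G+ (probe at chr10:67004798-67004857, mm9, plus strand). Here A-/G+ replicate 2 lay above A+/G+ replicate 1, and the difference of 0.75 ± 0.45 rested largely on A-/G+ replicate 3, being 0.29 without it (limma, adjusted p = 0.415 with all arrays). Egr3 was clear of background on none of the 6 arrays (probe at chr14:70479222-70479281, mm9, plus strand), so its signals of 2.16 to 3.63 have no order that can be read. Its difference turned from 0.57 to -0.48 when arrays were scaled to their 75th percentile.

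Nr4a1, the orphan nuclear receptor also called Nur77, showed the other large difference. It read 15.17, 15.06 and 15.32 in A+/G+ and 14.02, 14.06 and 13.06 in A-/G+ (probe at chr15:101105071-101105130, mm9, plus strand). Its difference of 1.47 ± 0.31, or 2.77-fold, lay just outside the threshold (limma, adjusted p = 0.0523). Under 6 of the 15 alternatives it passed, for example with an adjusted p of 0.019 where dim probes were left out before adjustment. Ier2, a small nuclear protein of the early growth response, read 10.12, 10.25 and 10.41 in A+/G+ and 9.58, 10.14 and 9.56 in A-/G+ (probe at chr8:87186214-87186273, mm9, minus strand). A-/G+ replicate 2 lay within the A+/G+ range, and the difference was 0.50 ± 0.19 (limma, adjusted p = 0.215).

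The spread of these genes lay almost wholly in the A-/G+ fraction. Over the 9 genes other than Egr3, each clear of background on the 6 arrays, the median SD was 0.13 among A+/G+ arrays and 0.54 among A-/G+ arrays, against 0.10 and 0.23 for all 13685 such genes. All 9 were lowest on A-/G+ replicate 3, whereas 42.5% of all genes were lower there than on both of the other A-/G+ arrays. The same held for 26 of 35 other early response genes clear of background on all arrays (74.3%). It also held for 8 of 10 astroglial markers. Relative to the mean of A-/G+ replicates 1 and 2, Fos was lower on replicate 3 by 1.38, a drop exceeded by 1.43% of genes. Egr2 was lower by 1.36, Nr4a1 by 0.99 and Fosb by 0.95. At the other end stood Junb with -0.53 and Ier2 with -0.30, and 27.0% of genes dropped further than Ier2. The median over the 9 genes was -0.94, against -0.04 for all genes. For the 35 other early response genes it was -0.48, and for the 10 astroglial markers -0.63.

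**Figure D2:**
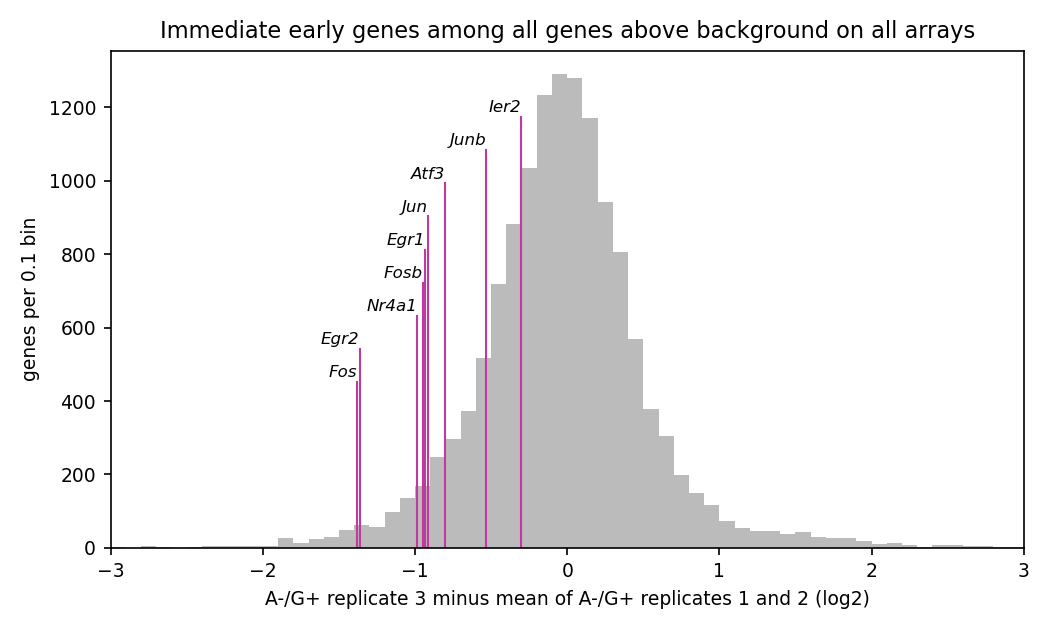
Signal on A-/G+ replicate 3 minus the mean of A-/G+ replicates 1 and 2 (x axis, log2) for the 13685 genes clear of background on each array (grey bars, genes per 0.1 bin), with the 9 measured immediate early genes as lines whose heights carry no value. All 9 lie left of 0, from -1.38 for Fos to -0.30 for Ier2.

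This ordering of the A-/G+ arrays appeared only after the arrays were brought to a common scale. Before normalization all 9 genes were lowest on replicate 1, the dimmest array: Fos, for example, had a median spot intensity of 2158, 5237 and 4062 on A-/G+ replicates 1, 2 and 3, and of 15646 to 16311 on the A+/G+ arrays. Scaled to the 75th percentile, 8 of the 9 were lowest on replicate 3, and with normexp background correction all 9 were. Replicate 3 also differed from the other A-/G+ arrays in markers of other cells. The summed signal of 10 endothelial markers was 8313 on it, against 1588 and 1930 on replicates 1 and 2 and 8021 to 12015 in A+/G+. The summed signal of 12 neuronal markers was 15080, against 8078 and 6625. These sums add linear signal, so the brightest probes weigh most, among the endothelial markers Cldn5. The part of these cells in the early gene values was not tested.

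Leaving A-/G+ replicate 3 out left each difference smaller and, except for Egr3 and Ier2, its standard error narrower, and 5 genes then passed rather than 1. These were Junb, Nr4a1 (1.14, adjusted p = 0.0104), Atf3 (0.64, adjusted p = 0.0153), Jun (0.46, adjusted p = 0.0226) and Egr1 (0.47, adjusted p = 0.0428; limma, 3 arrays against 2). The share of all probes called higher in A+/G+ rose at the same time from 4.65% to 7.97%. The median difference of the 9 measured genes fell from 0.79 to 0.46. Replicate 3 is the A-/G+ array on which these genes were lowest, so the narrower spread follows in part from that choice. Without A-/G+ replicate 1 instead 0 of the genes passed, and without A-/G+ replicate 2 the count was 1. Of all probes 6.91% and 5.84% passed in these fits, in either direction.

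**Figure D3:**
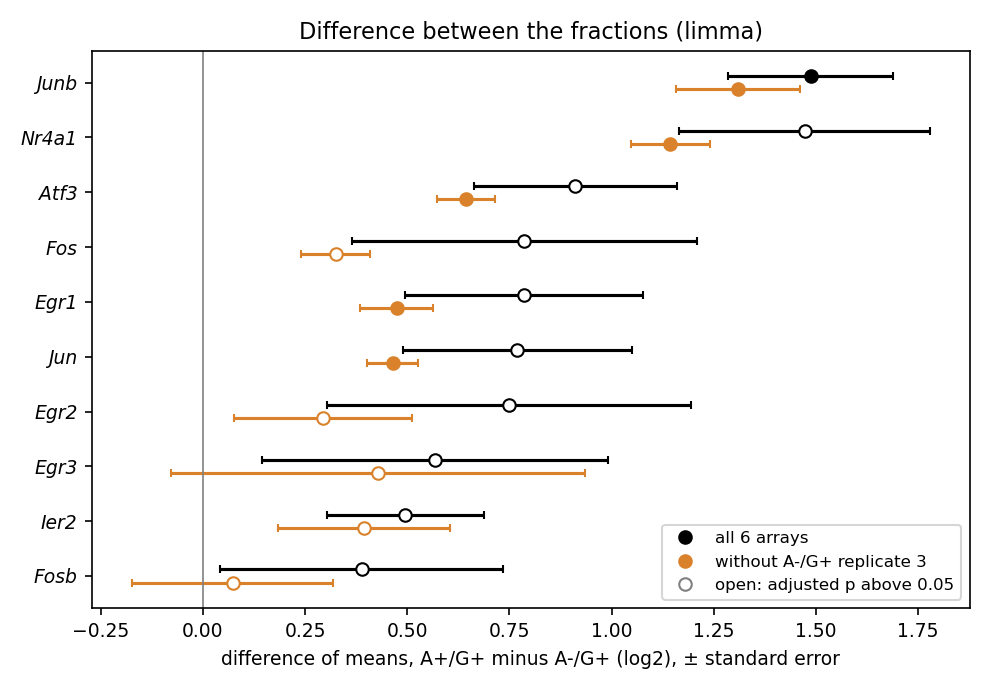
Difference of mean log2 signal, A+/G+ minus A-/G+ (x axis), with its standard error, for each immediate early gene with all 6 arrays (black) and without A-/G+ replicate 3 (orange); filled points have an adjusted p of at most 0.05. Every difference is above 0, Junb alone is filled in black, and 5 genes are filled in orange. The array left out is the A-/G+ array on which these genes were lowest.

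Promoters are shown for the genes with the largest differences, Junb and Nr4a1, for Fos, and for Egr2, for which 1 of its 5 windows, one that holds several motifs, is printed. RefSeq sequence (GRCm38.p6) was given for 7 of the 10 genes, all but Egr1, Egr3 and Ier2. The 250 bases before the start were searched on both strands for the cyclic AMP response element TGACGTCA and its core TGACG, for the AP-1 sites TGAGTCA and TGACTCA, for the EGR site GCGNGGGCG and for the CArG box, the binding site of SRF. In the printed windows capitals mark the core TGACG (or CGTCA on the other strand), the EGR site and the CArG box.
Junb, chr8:84978749-84978998, minus strand: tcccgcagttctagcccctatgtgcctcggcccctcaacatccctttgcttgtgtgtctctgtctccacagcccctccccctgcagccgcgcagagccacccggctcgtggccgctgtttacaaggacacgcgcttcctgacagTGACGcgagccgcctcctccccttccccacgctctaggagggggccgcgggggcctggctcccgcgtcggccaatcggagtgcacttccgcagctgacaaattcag
Nr4a1, chr15:101266596-101266845, plus strand: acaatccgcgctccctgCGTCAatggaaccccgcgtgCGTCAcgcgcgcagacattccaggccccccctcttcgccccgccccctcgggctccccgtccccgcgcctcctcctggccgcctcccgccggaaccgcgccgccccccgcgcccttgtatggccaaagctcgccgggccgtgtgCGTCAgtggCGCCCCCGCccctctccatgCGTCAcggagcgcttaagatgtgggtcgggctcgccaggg
Fos, chr12:85473640-85473889, plus strand: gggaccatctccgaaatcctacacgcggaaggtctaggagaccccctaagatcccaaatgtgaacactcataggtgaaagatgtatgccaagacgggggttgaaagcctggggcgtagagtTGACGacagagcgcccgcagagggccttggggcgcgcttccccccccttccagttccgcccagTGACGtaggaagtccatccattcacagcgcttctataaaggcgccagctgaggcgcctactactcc
Egr2, chr10:67537619-67537868, plus strand: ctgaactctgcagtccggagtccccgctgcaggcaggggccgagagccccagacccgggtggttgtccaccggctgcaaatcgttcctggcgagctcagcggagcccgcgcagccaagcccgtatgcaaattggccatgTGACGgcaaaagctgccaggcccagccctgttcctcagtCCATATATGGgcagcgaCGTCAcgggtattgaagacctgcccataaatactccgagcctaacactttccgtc
The core TGACG stood in 6 of the 7 genes (Fos, Fosb, Junb, Atf3, Egr2 and Nr4a1), against 17.8% of the 32851 promoter windows of all genes. A gene was counted if any of its windows held a motif, whereas the shares are of single windows. With 5 windows, Egr2 had more places to match. Nr4a1 held 4 copies and Fos 2, the nearer of which began 66 bases before the start. In Junb, the gene that passed the test, a single copy began 106 bases before the start. The EGR site stood in Fosb and Nr4a1 (4.7% of all windows), and the CArG box stood in Egr2 (1.47% of all windows). The full element TGACGTCA and both AP-1 sites were not found in these windows, where 1.55% and 4.46% of all windows held them. Each full element also counts as a core, and a match is a string of letters, not a measured binding site. Sequence further than 250 bases before the start was not searched, so a motif missing here can still lie beyond the window.

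Other early response genes, 48 in number, moved the same way for the most part. The mean was higher in A+/G+ for 37 of 48, with a median of 0.65, and 12 passed as higher in A+/G+ (limma; 4.65% of all probes) against 1 as higher in A-/G+ (4.64% of all probes). Among 12 relatives of the 10 genes 3 passed, among 15 transcription regulators 5, among 9 effectors 2, and among 12 feedback inhibitors 2 in A+/G+ and 1 in A-/G+. Of these 12, Batf and Ptgs2 were clear of background on none of the A-/G+ arrays, so their calls rest on A-/G+ values that were not measured. The count fell to 2 or 3 without an A+/G+ array and to 7 without A-/G+ replicate 2, and rose to 18 without A-/G+ replicate 3. The share of all probes passing in either direction moved too, from 9.29% with all arrays. It was 2.24% to 2.87% without an A+/G+ array, 5.84% without A-/G+ replicate 2 and 16.2% without A-/G+ replicate 3.

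Socs3, an inhibitor of cytokine receptor signalling, had the largest difference of the list. It read 12.73, 12.73 and 12.87 in A+/G+ and 10.64, 10.28 and 9.37 in A-/G+, a difference of 2.68 ± 0.35 or 6.42-fold (limma, adjusted p = 0.0175). Klf2, a zinc finger factor of vascular and immune cells, read 9.88, 9.89 and 9.93 in A+/G+ and 8.27, 7.66 and 8.43 in A-/G+ (difference 1.78 ± 0.22; limma, adjusted p = 0.0154). Gadd45b, a stress sensor, differed by 1.62 ± 0.20 (limma, adjusted p = 0.0158). Ctgf, a secreted matrix protein, read 8.69, 9.11 and 8.60 in A+/G+ and 7.52, 6.63 and 6.50 in A-/G+ (difference 1.92 ± 0.32; limma, adjusted p = 0.032). Ptgs2, the inducible cyclooxygenase, and Batf, an AP-1 relative of lymphocytes, had a signal clear of background in A+/G+ alone. The fit gave them an adjusted p of 0.0054 and 0.0396 (limma). No fold is given, because the lowest signal clear of background, averaged over the A-/G+ arrays, was 4.90 and their mean A+/G+ signals were 4.54 and 4.83.

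In the opposite direction stood Dusp4, named after its values were seen, a phosphatase of MAP kinases, at 6.04, 6.03 and 5.71 in A+/G+ and 7.16, 7.23 and 7.11 in A-/G+ (difference -1.24 ± 0.11; limma, adjusted p = 0.0082). Closer relatives of the 10 genes did not share 1 pattern. Nr4a2, also named after its values were seen, passed as higher in A+/G+ (1.09 ± 0.22; limma, adjusted p = 0.0461). Nr4a3, from the same receptor family as Nr4a1 and named here after its values were seen, read 4.92, 4.52 and 5.51 in A+/G+ and 7.32, 6.92 and 4.96 in A-/G+. The fractions overlapped through A-/G+ replicate 3, and the difference of -1.42 ± 0.71 did not pass (limma, adjusted p = 0.331).

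**Figure D4:**
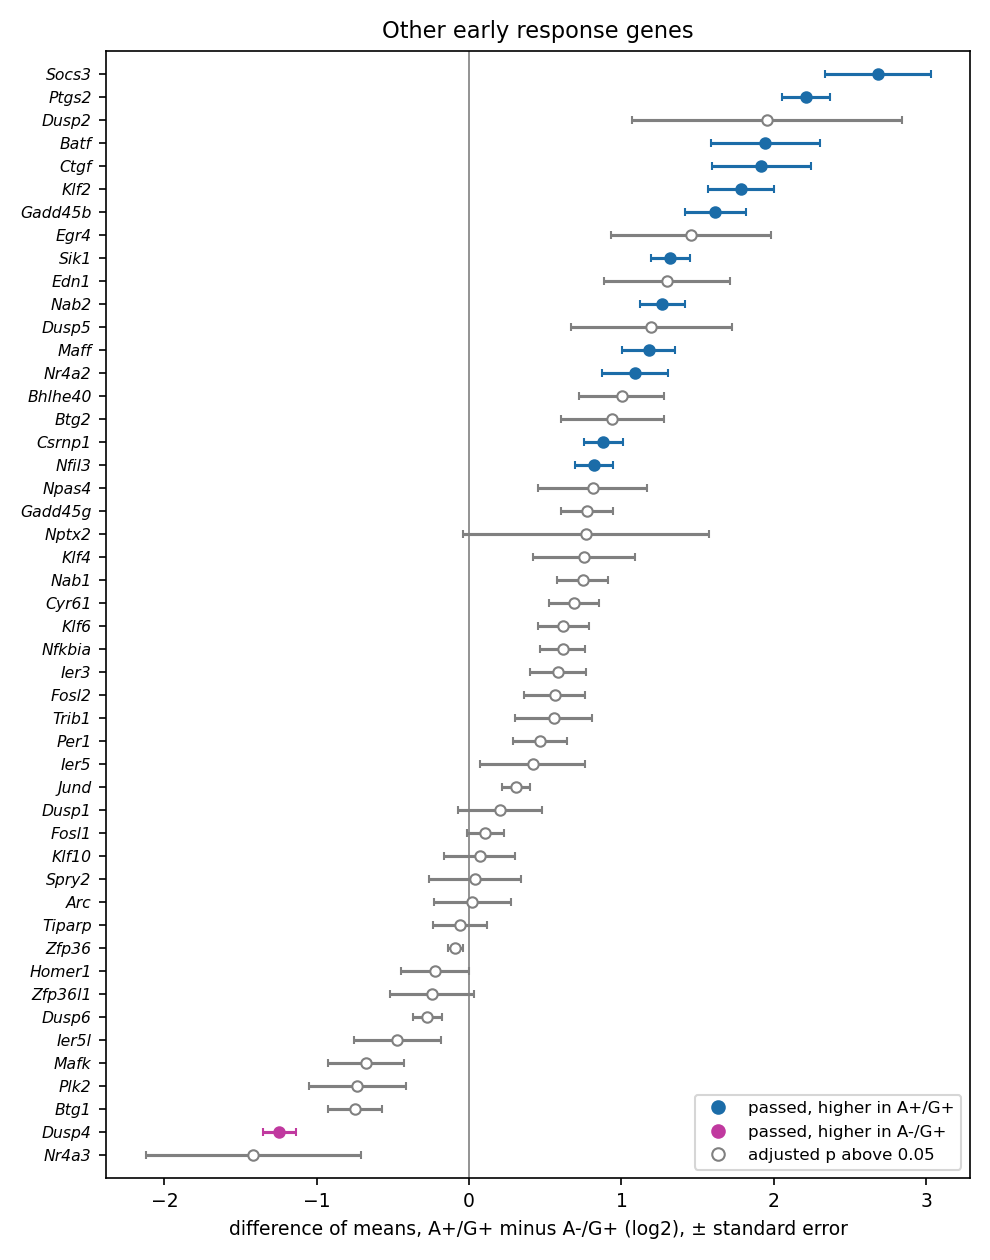
Difference of mean log2 signal, A+/G+ minus A-/G+ (x axis), with its standard error, for 48 other early response genes; filled blue points passed an adjusted p of 0.05 as higher in A+/G+, the filled magenta point as higher in A-/G+, and open points did not pass. Of the 48 points 37 lie right of 0, from Socs3 at 2.68 down to Nr4a3 at -1.42.

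Factors and kinases that act upstream of the early genes showed no such shift. Among 15 of them 6 had a higher mean in A+/G+, and the median difference was -0.12. None passed after adjustment, in limma or with the methods' t-test. At an unadjusted p of 0.05 in limma 5 passed. Of these, Srf, Elk1, Elk4 and Rps6ka5 were lower in A+/G+ and Atf1 was higher. In limma 9.29% of all probes passed in either direction after adjustment and 23.3% before it. Without A-/G+ replicate 3 the count after adjustment was 6, where 16.2% of probes passed. Srf, which binds the CArG box, read 10.95, 10.85 and 11.18 in A+/G+ and 12.31, 11.64 and 11.66 in A-/G+, without overlap, and its difference of -0.88 ± 0.22 missed the threshold (limma, adjusted p = 0.0805; named after its values were seen). Heat shock genes had a median difference of -0.03 over the 11 on the array. Hspb1 (1.60 ± 0.22; limma, adjusted p = 0.0207) and Hsp90aa1 (0.46 ± 0.09; adjusted p = 0.0401), both chaperones, were higher in A+/G+. In the integrated stress response list, whose median was 0.36 over 12 genes, Ppp1r15a passed (0.88 ± 0.12; limma, adjusted p = 0.0212). Its protein directs the phosphatase that ends this response. Without any 1 A+/G+ array none of these 3 passed, and without A-/G+ replicate 2 only 1 gene of the upstream and stress lists did (14 without A-/G+ replicate 3). In these fits 2.24% to 2.87%, 5.84% and 16.2% of all probes passed.

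Most marker lists of other cell types read higher in A+/G+, as the early genes did. Their order among the A-/G+ arrays varied. The endothelial, neuronal, ependymal and blood sums were highest on replicate 3, where the early genes were lowest. The meningeal and microglia sums and, by little, the Purkinje sum were lowest there, as was the astroglial sum. The pericyte sum lay between those of the other A-/G+ arrays. Because these are bulk samples, fewer cells of a type and less RNA per cell cannot be told apart. Sums add linear signal, so the brightest probes of a list weigh most. All 8 meningeal fibroblast markers were higher in A+/G+ without overlap, with a summed signal of 79242 to 95045 in A+/G+ and 13938 to 40877 in A-/G+. Their A-/G+ sum was lowest on replicate 3, the array where the early genes were lowest too. All 9 markers of pericytes and smooth muscle were likewise higher in A+/G+, at 13286 to 15770 against 2095 to 2945, although Myh11 was clear of background on none of the arrays. All 10 endothelial markers were on average higher in A+/G+, with summed signals of 8021 to 12015 against 1588 to 8313. Ciliated ependymal markers summed to 8164 to 13580 against 808 to 2827, and Purkinje cell markers to 5183 to 13849 against 1921 to 2459. Of 12 neuronal markers 10 were on average higher in A+/G+, with sums of 11455 to 19498 against 6625 to 15080, and of 5 blood markers 4 did, with sums of 8812 to 16120 against 2546 to 7811. Microglia and macrophage markers overlapped, at 1417 to 2481 against 1762 to 3985, and Ptprc was clear of background on none of the arrays. Only 4 of these 12 markers were clear of background on all arrays. Itgam was the brightest, at 11.66 log2 on A-/G+ replicate 1, where the sum was highest. The summed astroglial markers overlapped as well, at 151551 to 164492 against 133860 to 212132, but single markers did not move together. Gfap (3.03), Atp1b2 (2.16) and S100b (1.33) passed as higher in A+/G+, and Aldh1l1 (-0.64) as higher in A-/G+. The summed signal of the 10 early genes themselves was 96292 to 109982 in A+/G+ and 33483 to 66387 in A-/G+, with Nr4a1 and Jun the brightest. The part of the other cell types in the early gene difference was not tested.

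**Figure D5:**
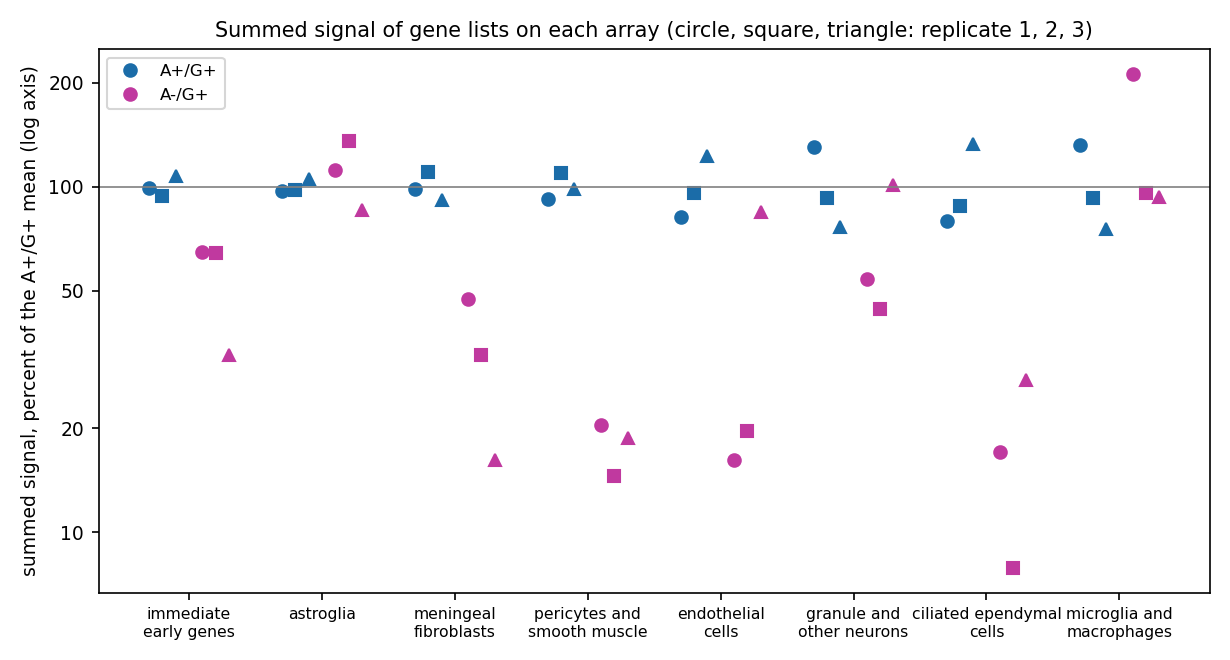
Summed normalized signal of each gene list on each array, as a percent of the mean of the 3 A+/G+ arrays (y axis, log scale), for A+/G+ (blue) and A-/G+ (magenta). The early genes fall to 32.6% of that mean on A-/G+ replicate 3. Among the A-/G+ arrays the meningeal, astroglial and microglia lists are also lowest there. The endothelial, neuronal and ependymal lists are highest there.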

How the data were processed

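Per the labels and methods, RNA was amplified with Cy3 and hybridised to Agilent one-colour arrays, and Feature Extraction 10.7.3.1 gave the deposited intensity of each spot, background-subtracted and detrended within the array. The authors also deposited a quantile-normalized log2 table, which served as an alternative. The probe annotation is mm9. Depth is set by signal over background, and with 3 arrays per fraction their number limits the precision.

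From the intensity values, log2 signal was taken without control spots and spots marked as outliers, quantile normalized, and averaged over the spots of a probe. In limma 3.58.1 (R 4.3.3) lmFit and eBayes were fitted over 55681 probes and p-values adjusted by Benjamini-Hochberg. The limits of the study were a 4-fold difference of medians together with an adjusted p no higher than 0.05. The fit was tested on simulated data. No slide block could be fitted. The labels call the arrays of a fraction biological replicates; how many animals each pool held is not given in the sources used here.

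A gene was read by its brightest probe; of 179 list entries 178 were found on the array. The named genes were all 10 members, of each other list up to 6 genes that passed, and the 5 genes most like Fos; genes outside this rule were named after their values were seen. The members and lists were chosen with earlier results of these data known. Promoters were read from RefSeq, and the exon or UTR a probe lies in was not annotated here. Alternative settings were scaling to the 75th percentile, normexp (offset 50), the authors' log2 table, trended robust variance, outlier spots kept in, a gene's mean over its probes, the t-test named in the methods, a replicate block, each array left out in turn, and dim probes left out.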

Additional observations from a re-analysis of the deposited data

How the results depend on the processing

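Of 149 values for the 10 genes under alternatives, 130 kept their direction and side of the threshold, 12 newly passed, 6 were lost and 1 turned, Egr3 at -0.48 with the 75th percentile shift. Among the other named genes Myh11 turned under that shift, at -0.37. The shift moved the median of all probes to -1.02, against -0.04. The count of the 10 genes past an adjusted p of 0.05, 1 as reported, was 3 with the 75th percentile shift, normexp or the filter on dim probes (where 35.2%, 12.7% and 26.1% of all features passed), 2 with trended robust variance or the mean of probes (8.14% and 11.0%), 0 with the methods' t-test (3 at an unadjusted p of 0.05, against 22.5% of probes), and 0 to 5 with an array left out. Other early response genes higher in A+/G+, 12 as reported, numbered 6 with the t-test and 2 to 18 with an array left out (18 without A-/G+ replicate 3, 2 without A+/G+ replicate 3). Those higher in A-/G+, 1 as reported, numbered 3 with the shift, 2 with normexp or the dim filter and 1 to 6 with an array left out. Upstream and stress genes, 3 as reported, numbered 7 with normexp, 6 with the dim filter, 5 with trended robust variance, 0 with the t-test (11 at an unadjusted p of 0.05) and 0 to 14 with an array left out. Probes past both limits (851 with A+/G+ and 222 with A-/G+ higher) numbered 234 and 48 with normexp, 487 and 121 with the t-test, 340 to 1458 and 77 to 490 with an array left out, and 2055 in A-/G+ with the shift. With an array left out, 2.24% to 16.2% of all probes passed an adjusted p of 0.05 in either direction. The causes were not tested. Same-numbered arrays of both fractions deviated from their fraction means with correlations of 0.20, 0.11 and -0.11 over 17944 probes. Differently numbered arrays gave -0.24 to 0.17. With 3 arrays the deviations within a fraction constrain one another, so these values cannot show whether the numbers pair the arrays. With the replicate block each of these counts was 0 (at an unadjusted p of 0.05, 3 of the 10 genes, 24 other early genes and 10 upstream and stress genes passed, against 21.0% of all probes). Low sample signal on the A-/G+ arrays limits what can be read of Egr3, Batf and Ptgs2.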

Other observations

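Gene profiles over the 6 arrays were compared with that of Fos. Likeness was the mean absolute difference of centred log2 signal over the 13685 genes clear of background on each array. Of the 5 nearest genes in all, Jun and Egr2 belong to the 10 and Klf4 is another early response gene. The 5 nearest outside the 10 were Itih5 at 0.112, Aqp4, the water channel of astrocyte endfeet, at 0.113, Klf4, an early response factor, at 0.116, Gdpd2 at 0.127 and Fstl1 at 0.130. Aqp4, for example, read 13.11, 12.82 and 13.00 in A+/G+ and 12.46, 12.86 and 11.03 in A-/G+, so that its lowest value lay on A-/G+ replicate 3 as for Fos. Its difference was 0.86 ± 0.51 (limma, adjusted p = 0.411). Among the 10 genes, Jun ranked 2 in likeness, Egr2 5, Egr1 10 and Atf3 22, while Nr4a1 ranked 891 and Junb 2693. The measure includes the size of the difference between the fractions, so genes with a larger or smaller difference than Fos rank lower by construction.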
